A study of Homo sapiens with 12 samples.

Results

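UBQLN1 knockout human embryonic stem cells grown at 5% O2 were compared with wild-type (WT) cells of the same line grown at 20% O2, across all genes measured by RNA-seq. The comparison rests on 4 of the 12 labelled samples, 2 KO libraries at 5% O2 and 2 WT libraries at 20% O2, chosen by their labels. Genotype and oxygen both differ between these groups, and no WT library at 5% O2 was used here. The share of each in a difference cannot be told apart from this comparison alone. KO libraries at 20% O2 were therefore set beside it, to sort the differences into those that remained at 5% O2 and those that appeared there.

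All libraries came from the WA26 line, a human embryonic stem cell line grown without feeder cells on Matrigel in E8 medium. The knockout was made by CRISPR/Cas9 with a pair of guides, and clones were picked. The labels do not tie a library to a clone or to a separate culture, so p-values measure the spread between libraries, which may be technical. The WT and KO cells at 20% O2 had no further treatment, and the KO cells at 5% O2 differ from them by the oxygen level in their labels. The study's text describes about a day at low oxygen and its scheme describes several passages, so the length of the exposure is uncertain. A further group, KO cells given the antioxidant N-acetylcysteine (NAC), enters the fit through the shared estimate of spread, the filter on low counts and the scaling. The 6 libraries of WT and KO without NAC held about 32591000 to 41639400 counts, and 15916 of 28278 genes passed the filter on low counts.

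Ubiquilin-1, the product of UBQLN1, carries ubiquitinated proteins to the proteasome and guards against misfolded mitochondrial membrane proteins in the cytosol. Cells sense oxygen through prolyl hydroxylases of the EGLN family, which mark the alpha subunits of hypoxia-inducible factor (HIF) for destruction through the VHL ubiquitin ligase. When oxygen falls the hydroxylases slow, HIF alpha accumulates as protein, pairs with ARNT and binds the core sequence ACGTG near genes of glucose uptake, glycolysis, mitochondrial removal and collagen modification. Human embryonic stem cells draw much of their energy from glycolysis and tolerate low oxygen well.

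The promoters of the oxygen-response genes carry the HIF core at differing places. Shown here are the HIF targets that rose with the lowest p among those that hold the core before the start of the RefSeq transcript, to let the core be seen in its setting. The sequences are from RefSeq on GRCh38.p14, read 5′ to 3′ on the strand of the gene, and capitals mark ACGTG or its reverse complement CACGT.

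FAM162A, chr3:122384070-122384130, plus strand: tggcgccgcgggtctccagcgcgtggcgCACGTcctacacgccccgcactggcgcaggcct
EGLN1, chr1:231422288-231422328, minus strand: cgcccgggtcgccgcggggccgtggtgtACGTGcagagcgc
BNIP3, chr10:131982024-131982084, minus strand: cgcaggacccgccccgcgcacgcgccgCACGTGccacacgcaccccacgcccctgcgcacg
BHLHE40, chr3:4979260-4979320, plus strand: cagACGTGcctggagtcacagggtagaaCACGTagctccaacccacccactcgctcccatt
PLOD2, chr3:146161298-146161358, minus strand: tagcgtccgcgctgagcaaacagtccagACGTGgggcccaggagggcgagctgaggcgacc

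In EGLN1 the core lies 13 bases before the start and in FAM162A 84 bases before it. In BNIP3 ACGTG and CACGT overlap as a palindrome. The table of RefSeq promoters covers 250 bases before to 50 bases after each start. It held 21 of the 24 HIF targets that rose, and 11 of the 21 (52.4%) held ACGTG on either strand. Of the 10 promoters found for HIF targets that were tested and not called, 6 held it. The share was 21.6% over all 27305 promoters and 25.7% over the promoters of tested genes. A match is a description of these letters and not a measured binding site.

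The targeted gene was low in every KO library. UBQLN1 was at 221 and 197 CPM (counts per 1e6 counts of the scaled library) in the WT libraries, at 51.9 and 47.7 CPM in KO at 5% O2, and at 42.3 and 43.5 CPM in KO at 20% O2. No KO library came near the WT range. The log2 fold change of KO at 5% O2 over WT was -2.07 (SE 0.12, adjusted p = 2.85e-06 by the edgeR quasi-likelihood fit, with the Benjamini-Hochberg method applied over all tested genes). The related genes UBQLN2 and UBQLN4 were not called, and UBQLN4 was at 70.7 and 69.5 CPM in WT and at 74.6 and 81.8 CPM in KO at 5% O2.

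Across all genes, 520 were called at an adjusted p under 0.05 (3.27% of tested genes), of which 284 were higher in KO at 5% O2 than in WT at 20% O2 (1.78%) and 236 were lower (1.48%). With a log2 fold change over 1 as well, 100 were higher (0.628%) and 81 lower (0.509%). By the criteria of the study's methods, which join a log2 fold change above 1 to a p under 0.05 without adjustment, 234 were higher (1.47%) and 328 lower (2.06%). The libraries of the groups did not overlap for many more genes than were called, with 26.9% of tested genes above and 26.0% below WT in both KO libraries at 5% O2. The number of calls depended on which libraries were in the fit. Without the NAC libraries, which disagreed with each other most, 774 genes were higher and 796 lower, and all 520 genes called with them were among these. Without the first or the second library of KO at 5% O2, 99 and 143 genes were called. Without the first or the second WT library, 151 and 129 were called, and without the first or the second library of KO at 20% O2, 301 and 300 were called.

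Of the 284 genes that were higher, 59 were also called higher in KO at 20% O2 over WT and are described as remaining. A further count of 135 were called higher in KO at 5% O2 over KO at 20% O2 and are described as appearing, and 4 genes were in both classes. Of the 236 genes that were lower, 66 remained and 63 appeared, with KDR in both classes. The other 94 higher and 108 lower genes passed the test in this comparison and in neither of the other two. The background was 1.34% higher and 0.622% lower in KO at 20% O2 over WT, and 3.68% higher and 4.13% lower in KO at 5% O2 over KO at 20% O2. These comparisons share libraries, so a class describes where a gene was called and is no independent test.

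**Figure D1:**
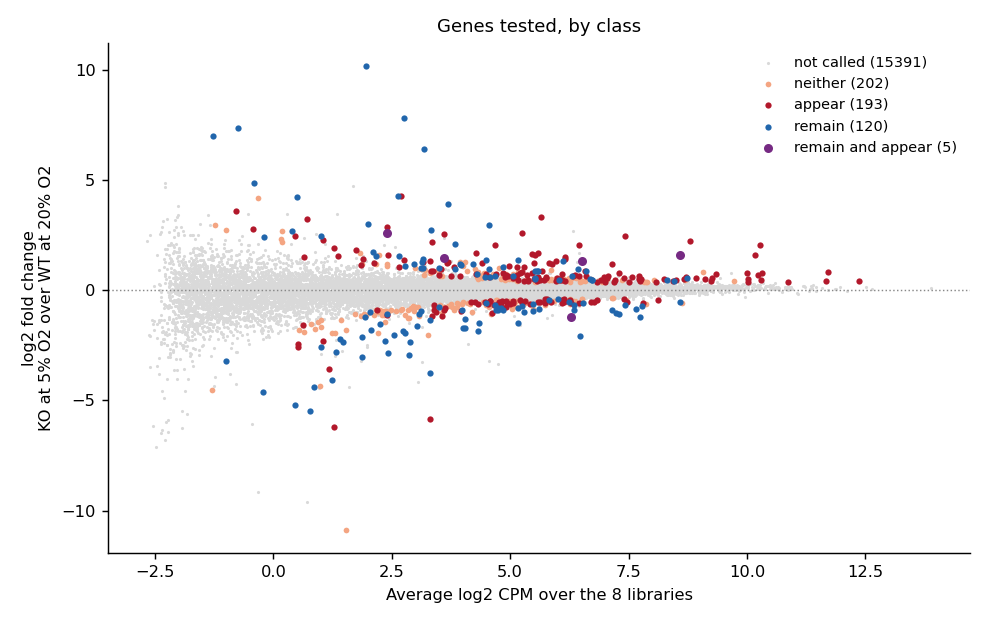
Each point is 1 of 15911 tested genes (XIST and Y-linked genes are not drawn), placed by its average log2 CPM over the 8 fitted libraries and its log2 fold change of KO at 5% O2 over WT at 20% O2. Genes that remained (120) include the largest increase, ZNF723 (log2 fold change 10.2), and genes that appeared (193) reach the highest expression. Another 5 genes are in both classes, and 202 called genes are in neither, among them S100A6 (log2 fold change -10.9).

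Most HIF targets were higher at 5% O2. Of 37 measured targets, 24 were higher in KO at 5% O2 than in WT and none was lower, against 1.78% of all tested genes higher. The median log2 fold change of the 37 genes was 1.26, against 0.00 over all tested genes. In KO at 20% O2 over WT the median of the same list was -0.05 with 1 gene called, and in KO at 5% O2 over KO at 20% O2 it was 1.36. By class, 22 of the 24 appeared at 5% O2, AK4 remained and STC2 was in neither class. Of the 13 targets not called, 9 lay above 0 and 4 at or below it, among them VEGFA, the vascular growth factor, with 23.2 and 27.7 CPM in WT and 28.8 and 30.4 CPM in KO at 5% O2 (log2 fold change 0.22, adjusted p = 0.404).

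SLC2A1, the GLUT1 glucose transporter, was at 198 and 208 CPM in WT and at 933 and 985 CPM in KO at 5% O2. KO cells at 20% O2 held 218 and 228 CPM, close to WT. The log2 fold change over WT was 2.24 (SE 0.10, adjusted p = 7.94e-07). ADM, which encodes the vessel-dilating peptide adrenomedullin, rose from 30.99 and 29.97 CPM in WT to 69.8 and 71.6 CPM (log2 fold change 1.21, adjusted p = 2.74e-05). FAM162A, a mitochondrial protein gene induced by HIF, rose from 39.4 and 44.8 CPM to 124 and 117 CPM (log2 fold change 1.52, adjusted p = 6.62e-06). In each of these genes the KO libraries at 20% O2 stood near WT and the KO libraries at 5% O2 stood above both.

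**Figure D2:**
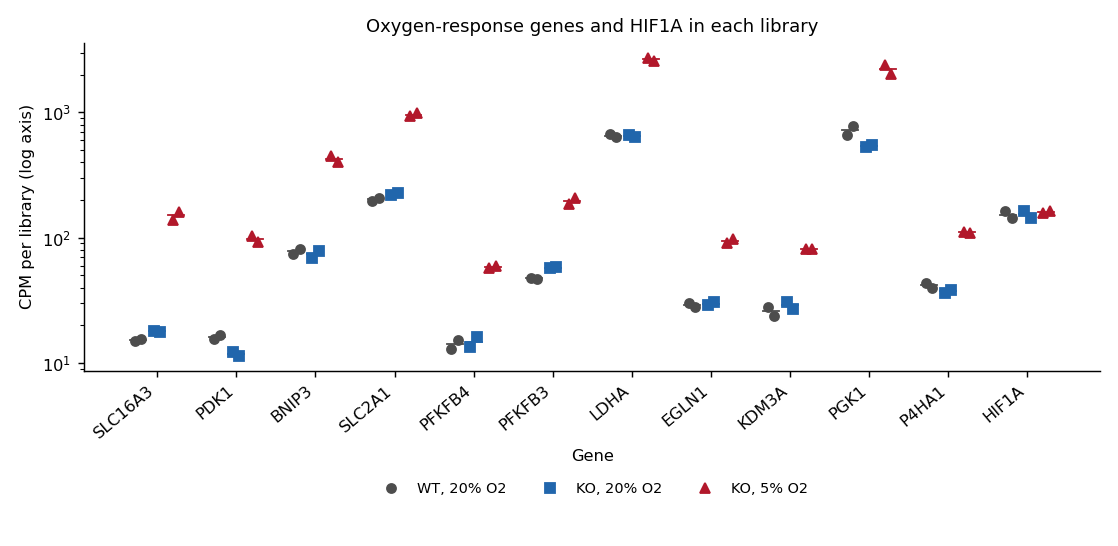
CPM on a log axis for 11 oxygen-response genes and HIF1A in each of 6 libraries, with a short line at the mean of the 2 libraries of a group. In the 11 genes the 2 libraries of KO at 5% O2 lie above the 4 libraries at 20% O2, while HIF1A lies between 143 and 163 CPM in all 6.

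Glycolysis rose along most of its length. Of 21 measured genes, 16 were higher and none was lower, against 1.78% of all tested genes higher, and all 16 appeared at 5% O2. The median log2 fold change was 0.75, against -0.01 in KO at 20% O2 over WT. Regulators of the pathway also rose. PFKFB3, which makes the activator of phosphofructokinase, went from 48.0 and 47.1 CPM in WT to 187 and 207 CPM (log2 fold change 2.05, adjusted p = 2.85e-06). Its relative PFKFB4 went from 13.1 and 15.2 CPM to 57.84 and 59.96 CPM (log2 fold change 2.06, adjusted p = 6.62e-06).

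Enzymes of the pathway rose as well. PGK1, phosphoglycerate kinase, was at 665 and 777 CPM in WT and at 2371 and 2029 CPM in KO at 5% O2 (log2 fold change 1.61, adjusted p = 0.000125). ENO1, enolase, was at 2791 and 2738 CPM in WT and at 4793 and 4919 CPM (log2 fold change 0.81, adjusted p = 0.000125). GAPDH, often used as a loading reference, was at 5092 and 4854 CPM in WT and at 6384 and 6638 CPM in KO at 5% O2, a log2 fold change of 0.39 (adjusted p = 0.00836). The members not called were PFKL, ENO2, ALDOA, HK1 and PFKM, with log2 fold changes from -0.11 to 0.43. ALDOA, aldolase, was at 12.3 and 13.8 CPM in WT and at 16.5 and 18.7 CPM in KO at 5% O2. Whether reads of ALDOA were lost in counting where genes overlap was not tested.

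Of 15 measured genes that decide the fate of pyruvate, LDHA, SLC16A3 and PDK1 were higher and none was lower, against 1.78% of all tested genes higher. LDHA and SLC16A3 were counted in the glycolysis list as well. LDHA, which turns pyruvate into lactate, was at 675 and 631 CPM in WT and at 2736 and 2571 CPM in KO at 5% O2 (log2 fold change 2.02, adjusted p = 2.85e-06). SLC16A3, the lactate exporter MCT4, rose from 15.0 and 15.6 CPM to 140 and 161 CPM (log2 fold change 3.29, SE 0.32, adjusted p = 0.000162). PDK1, a kinase that switches off pyruvate dehydrogenase, went from 15.4 and 16.6 CPM to 103 and 91.8 CPM (log2 fold change 2.60, SE 0.25, adjusted p = 0.000179). The pyruvate dehydrogenase subunit genes PDHA1, PDHB, DLAT and PDHX had log2 fold changes from -0.04 to 0.17, and LDHB had 0.23 (adjusted p = 0.199).

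Among the oxygen sensors themselves, the prolyl hydroxylase genes EGLN1 and EGLN3 rose, while EGLN2, the asparaginyl hydroxylase HIF1AN and the transcription factors were not called. EGLN1 and EGLN3 were 2 of 12 genes measured, against 1.78% of all tested genes higher. EGLN1, the main HIF prolyl hydroxylase, was at 30.2 and 27.8 CPM in WT and at 90.7 and 97.5 CPM in KO at 5% O2 (log2 fold change 1.70, adjusted p = 8.28e-06), and EGLN3 went from 19.3 and 21.96 CPM to 31.9 and 31.3 CPM (log2 fold change 0.62, adjusted p = 0.0299). HIF1A mRNA was at 162 and 143 CPM in WT and at 159 and 163 CPM in KO at 5% O2 (log2 fold change 0.07, adjusted p = 0.732). ARNT was at 43.5 and 40.8 CPM in WT and at 42.4 and 41.9 CPM. For HIF1A, ARNT, ARNT2, EPAS1, HIF1AN, CUL2 and VHL the fold changes were so close to 0 that their signs turned under some settings, as the closing section lists. VHL was at 19.4 and 23.8 CPM in WT, at 33.9 and 32.8 CPM in KO at 20% O2 and at 22.5 and 21.8 CPM in KO at 5% O2. It was called higher in KO at 20% O2 (log2 fold change 0.63, adjusted p = 0.036) and had a log2 fold change of 0.04 at 5% O2 over WT. The counts of VHL are uncertain, since 15.3% of its transcript words also stand on alternate loci. HIF3A, a HIF relative, had -0.44 (adjusted p = 0.225), and EGLN2 was under 0.5 CPM in each of the 6 libraries. EGLN2 held 5 and 7 counts in WT and 6 and 2 in KO at 5% O2, too few to judge a change. Whether its reads were lost in counting where genes overlap was not tested, so the low counts need not mean low expression.

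Genes for the removal of mitochondria moved both ways, in different classes. BNIP3, an outer-membrane receptor for mitophagy and a HIF target, was at 73.5 and 81.8 CPM in WT and at 445 and 405 CPM in KO at 5% O2 (log2 fold change 2.45, SE 0.23, adjusted p = 0.000154). Its relative BNIP3L went from 42.4 and 40.3 CPM to 107 and 98.7 CPM (log2 fold change 1.31, adjusted p = 0.000564). Both appeared at 5% O2. OPTN, the receptor optineurin that links ubiquitinated mitochondria to the autophagosome, was at 32.1 and 30.8 CPM in WT, at 9.62 and 10.2 CPM in KO at 20% O2 and at 10.1 and 9.22 CPM in KO at 5% O2. It thus remained lower at both oxygen levels, with log2 fold changes over WT of -1.67 at 20% O2 and -1.70 at 5% O2 (adjusted p = 0.000916 at 5% O2). PINK1, the kinase that marks damaged mitochondria, was at 16.2 and 17.1 CPM in WT, at 11.2 and 13.3 CPM in KO at 20% O2 and at 8.61 and 11.4 CPM in KO at 5% O2, and was called lower only in the last of these against WT (log2 fold change -0.74, adjusted p = 0.0402). Of 15 measured genes 2 were thus higher and 2 lower, against 1.78% higher and 1.48% lower over all tested genes. The other 11 were not called.

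Few nuclear genes of the respiratory chain were called against WT. Of 77 measured, NDUFA3 alone was called (against 1.78% of all tested genes higher), but its counts are uncertain, since the genome build carries 90.7% of its transcript (as words of 31 bases) a further time on scaffolds of alternate loci. The median log2 fold change was 0.08 over WT, with 61 genes above 0 and 16 below. In KO at 20% O2 over WT the median was -0.20 with none called. Beside these small shifts stand those of other abundant housekeeping genes, with medians of 0.12 for 80 cytosolic ribosomal protein genes, 0.09 for 44 proteasome genes and 0.07 for 77 mitochondrial ribosomal protein genes. In KO at 20% O2 over WT these had medians of -0.22, -0.13 and -0.15. In each comparison the medians of the 4 lists had the same sign. In KO at 5% O2 over KO at 20% O2, 18 of the 77 chain genes were higher (median 0.27) and 38 of the 80 cytosolic ribosomal protein genes (median 0.32), with none lower in either list, against 3.68% of all tested genes higher. Among the antioxidant genes, 1 of 35 was called, near the 1.78% of all tested genes that were higher. This was NQO1, a quinone reductase, at 55.2 and 54.6 CPM in WT, at 88.0 and 95.04 CPM in KO at 20% O2 and at 92.4 and 76.4 CPM in KO at 5% O2 (log2 fold change 0.62, adjusted p = 0.00799), which remained.

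Other groups that use oxygen as a substrate held called genes. These are collagen hydroxylases, histone demethylases and sterol enzymes. Of 11 genes of collagen modification, 3 were higher and appeared, against 1.78% of all tested genes higher. PLOD2, lysyl hydroxylase 2, went from 37.6 and 40.3 CPM in WT to 94.9 and 86.2 CPM (log2 fold change 1.22, adjusted p = 0.000357). P4HA1 and P4HA2, alpha subunits of prolyl hydroxylase, had log2 fold changes of 1.41 and 1.27 (adjusted p = 0.000741 and 0.00261).

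Of 20 histone demethylases of the JmjC family, 4 were higher and none was lower, against 1.78% of all tested genes higher. KDM3A, which removes methyl groups from lysine 9 of histone H3, was at 28.02 and 23.6 CPM in WT and at 81.3 and 81.3 CPM in KO at 5% O2 (log2 fold change 1.66, adjusted p = 0.000564). KDM4B and KDM7A also appeared, with log2 fold changes of 0.72 and 0.64. KDM6B, which acts on lysine 27, was already higher at 20% O2 and remained, with 9.53 and 10.5 CPM in WT, 18.2 and 20.1 CPM in KO at 20% O2 and 19.99 and 25.4 CPM in KO at 5% O2 (log2 fold change 1.18, adjusted p = 0.0113). The median of the 20 genes was 0.04, so the calls were those of single members.

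Sterol synthesis shifted more broadly and by less. Of 25 measured genes 6 were higher and none was lower, against 1.78% of all tested genes higher. In all, 24 of 25 had a log2 fold change above 0, and the median was 0.25. INSIG2, an endoplasmic reticulum protein that restrains this pathway, was the largest change, from 6.83 and 6.22 CPM to 16.5 and 16.5 CPM (log2 fold change 1.34, adjusted p = 0.00604). SC5D, CYP51A1, STARD4 and IDI1 rose by log2 fold changes of 0.44 to 0.61. The 6 called genes all appeared at 5% O2, and the median in KO at 20% O2 over WT was -0.03.

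Stress pathways showed few calls. DDIT4, an inhibitor of mTORC1 and a HIF target, was at 27.9 and 30.2 CPM in WT, at 17.3 and 17.4 CPM in KO at 20% O2 and at 186 and 189 CPM in KO at 5% O2, with no overlap. Its log2 fold change of 2.69 (SE 0.68) had an adjusted p of 0.0560, and the NAC libraries, which share the estimate of spread, stood at 163 and 15.2 CPM. Without the NAC libraries its adjusted p was 1.25e-09, and edgeR also called it in the 4 libraries compared (3.16e-10), with no filter (8.55e-114), with at least 10 counts in every library (0.0479) and without genes on alternate loci (0.0218). Over all alternatives its adjusted p ran from 8.55e-114 to 0.321. With the low-count filter and all libraries used for the other values, none of the 8 mTORC1 brakes, DDIT4 among them, was called by edgeR or DESeq2, with 4 at an unadjusted p under 0.05. In the integrated stress response 1 of 24 genes was higher and 1 lower, against 1.78% higher and 1.48% lower over all tested genes. STC2, a secreted glycoprotein, was at 47.9 and 46.7 CPM in WT and at 78.8 and 96.9 CPM in KO at 5% O2 (log2 fold change 0.89, adjusted p = 0.0494), and PCK2, the mitochondrial phosphoenolpyruvate carboxykinase, fell from 103 and 116 CPM to 70.9 and 75.2 CPM (log2 fold change -0.58, adjusted p = 0.0087). The call of STC2 was lost under 10 of 16 other settings.

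None of 15 measured genes of shelterin and telomerase was called by edgeR or by DESeq2, and 2 had an unadjusted p under 0.05. TERT, the catalytic subunit of telomerase, was at 18.9 and 21.6 CPM in WT and at 18.2 and 21.8 CPM in KO at 5% O2, and TERF1, which binds the telomeric repeat, at 563 and 623 CPM and at 624 and 562 CPM. The list's log2 fold changes ran from -0.24 to 0.24 with a median of 0.00. The 2 members with the lowest p were NOP10 and ACD, with log2 fold changes of 0.24 and -0.24 (adjusted p = 0.206 and 0.249).

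**Figure D3:**
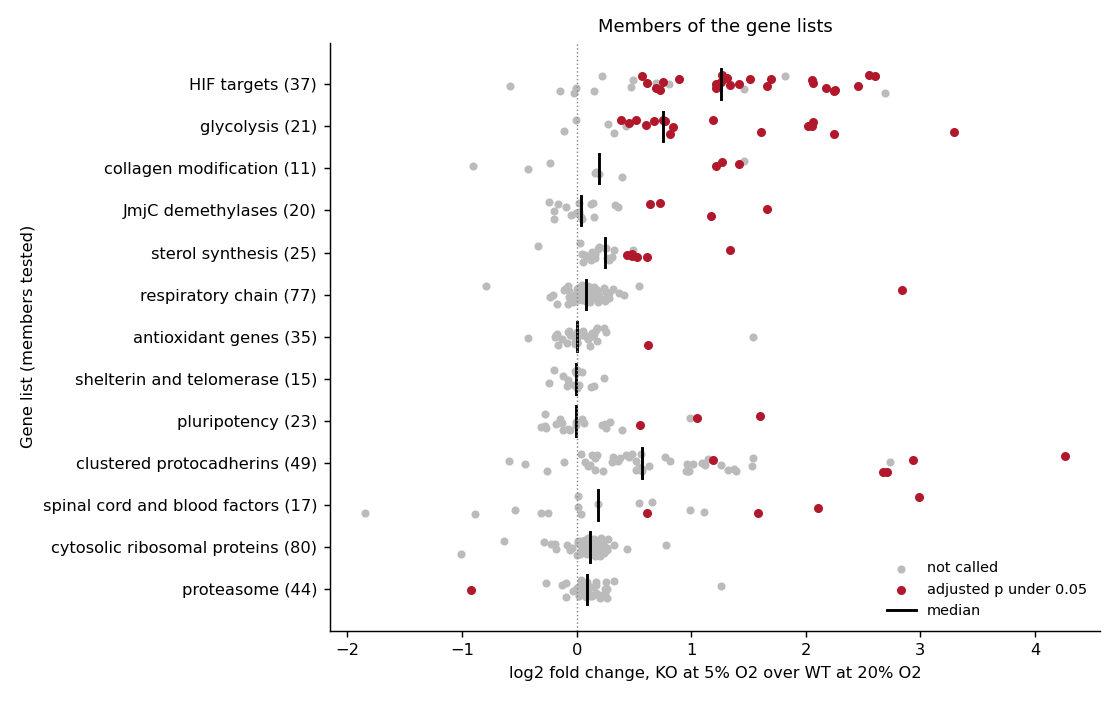
Each point is a member of a gene list (members tested in brackets) placed by its log2 fold change of KO at 5% O2 over WT at 20% O2, with red for an adjusted p under 0.05 and a black bar at the median of the list. The medians of HIF targets (1.26), glycolysis (0.75) and clustered protocadherins (0.57) lie to the right, while shelterin and telomerase genes lie within -0.24 to 0.24.

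The genes that remained were led by genes nearly silent in WT and on in every KO library. ZNF723, a KRAB zinc-finger gene on chromosome 19, had 0 counts in both WT libraries and 4.39 and 3.49 CPM in KO at 5% O2, which is at least 47.0-fold higher when WT is set at 3 counts per library. ZNF560 on chromosome 19 (hg38, 9466355 to 9498616) was at 0.0899 and 0.156 CPM in WT, at 9.62 and 10.2 CPM in KO at 20% O2 and at 11.9 and 9.82 CPM in KO at 5% O2 (log2 fold change 6.40, SE 0.30, adjusted p = 7.94e-07). ZNF562, its near neighbour on chromosome 19 (9641807 to 9675100), was at 0.959 and 0.985 CPM in WT and at 16.2 and 13.3 CPM in KO at 5% O2 (log2 fold change 3.92, adjusted p = 2.13e-06). Between the KO groups these genes barely differed, with log2 fold changes from -0.12 to 0.13. TRIM4, a ubiquitin ligase of the tripartite-motif family, had 2 counts over both WT libraries and 507 over both KO libraries at 5% O2, a ratio of 250 with a 95% exact counting interval from 68.9 to 2073, which covers counting error only. The share of transcript words that also stand on alternate loci was 19.2% for ZNF723 and 11.4% for ZNF562, so part of their reads could be lost in every library.

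**Figure D4:**
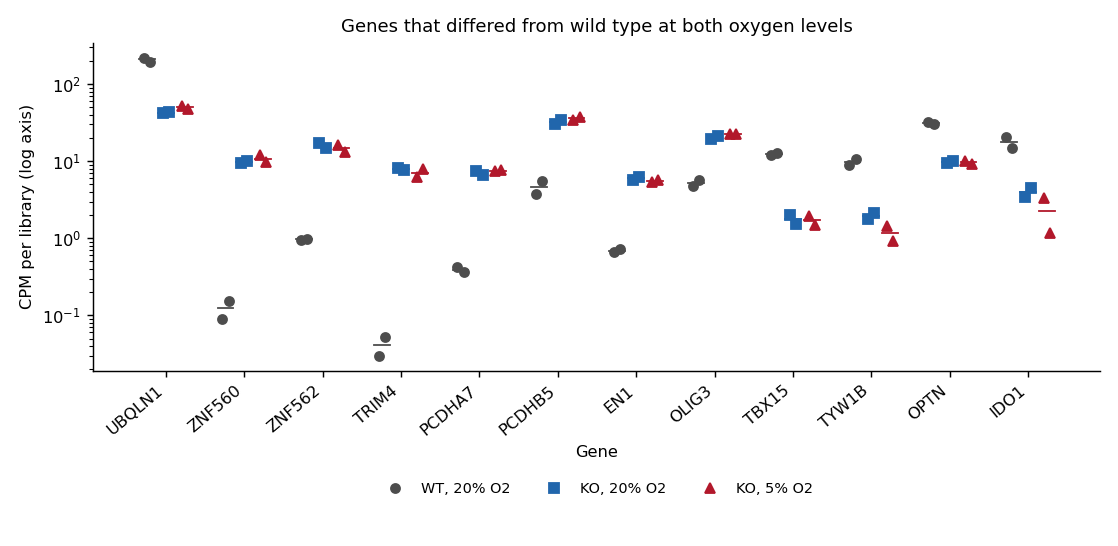
CPM on a log axis for UBQLN1 and 11 other genes in each of 6 libraries, with a short line at the mean of the 2 libraries of a group and a library at 0 counts (TRIM4, WT) drawn at 0.03 CPM. In each gene the 4 KO libraries lie on 1 side of the 2 WT libraries, at 20% O2 and at 5% O2.

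Clustered protocadherins, cell-surface adhesion proteins that give neurons distinct identities, held called genes at both oxygen levels. Of 49 measured, 5 were called higher and none lower, against 1.78% of all tested genes higher, and the 5 all remained. The list's median log2 fold change was 0.57, with 45 of 49 above 0, against 0.78 in KO at 20% O2 over WT. PCDHA7 was at 0.420 and 0.363 CPM in WT, at 7.37 and 6.68 CPM in KO at 20% O2 and at 7.48 and 7.64 CPM in KO at 5% O2 (log2 fold change 4.26, SE 0.24, adjusted p = 2.85e-06). PCDHB5 was at 3.78 and 5.55 CPM in WT and at 34.0 and 37.7 CPM in KO at 5% O2 (log2 fold change 2.94, adjusted p = 2.04e-05). PCDHB16, PCDHB9 and PCDHGA11 had log2 fold changes of 2.71, 2.67 and 1.19. The assignment of reads to single members is uncertain, because the clusters consist of paralogs and of genes with common exons. Of 17 other cadherins, CDH2 (N-cadherin) alone was called, as higher, against 1.78% of all tested genes higher. It went from 43.8 and 45.9 CPM to 65.2 and 61.9 CPM (log2 fold change 0.50, adjusted p = 0.0241), and the median of that list was -0.47.

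Of 17 measured transcription factors of the spinal cord and blood, 4 were higher and none was lower, against 1.78% of all tested genes higher, and 3 of the 4 remained. The list ran both ways, with 12 members above 0 and 5 below it, down to a log2 fold change of -1.85. DESeq2 called 5 members higher and 2 lower. EN1, a homeobox factor of the midbrain and ventral spinal cord, was at 0.659 and 0.726 CPM in WT and at 5.35 and 5.73 CPM in KO at 5% O2 (log2 fold change 2.99, SE 0.29, adjusted p = 0.000173). OLIG3, a factor of dorsal spinal cord progenitors, was at 4.74 and 5.73 CPM in WT, at 19.7 and 21.0 CPM in KO at 20% O2 and at 22.8 and 22.4 CPM in KO at 5% O2 (log2 fold change 2.11, adjusted p = 0.0153). PAX7 had a log2 fold change of 0.62 and remained, and TAL1, a factor of blood and interneurons, had 1.58 and was in neither class. SIX6, an eye-field factor counted here with neuroectoderm markers, remained at 107 and 101 CPM against 55.9 and 59.5 CPM in WT (log2 fold change 0.85, adjusted p = 0.00604). It was at 119 and 140 CPM in KO at 20% O2.

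Among the genes that remained lower, those with the largest changes had varied roles. TBX15, a T-box factor of skeletal and fat development, was at 11.96 and 12.7 CPM in WT, at 1.98 and 1.53 CPM in KO at 20% O2 and at 1.94 and 1.496 CPM in KO at 5% O2 (log2 fold change -2.84, adjusted p = 0.000254). IDO1, which breaks down tryptophan, was at 20.4 and 14.9 CPM in WT and at 3.31 and 1.18 CPM in KO at 5% O2 (log2 fold change -2.95, adjusted p = 0.0015), with 14.9% of its transcript words on alternate loci. TYW1B, a paralog of a tRNA-modifying enzyme, fell from 9.05 and 10.6 CPM to 1.42 and 0.935 CPM (log2 fold change -3.05, adjusted p = 0.000107), and the uncharacterised transcript LOC101928595 from 32.7 and 33.7 CPM to 2.31 and 2.52 CPM (log2 fold change -3.78, adjusted p = 0.000179). FEZF1-AS1, an antisense RNA of a neural factor, had a log2 fold change of -2.82. Its reads cannot be told apart from those of its overlapping partner unless strand was used in counting.

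S100A6, a calcium-binding protein of the S100 family, was at 6.83 and 5.96 CPM in WT and had 0 counts in both KO libraries at 5% O2, at least 76.6-fold lower when these are set at 3 counts per library. It had 2 and 0 counts in KO at 20% O2, but 9.63 CPM in the first NAC library, and its call was lost when any of the 6 libraries was left out.

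The differences that appeared as decreases were fewer and less certain than the increases. KDR, the VEGF receptor 2, was at 116 and 121 CPM in WT, at 67.8 and 67.7 CPM in KO at 20% O2 and at 48.9 and 53.9 CPM in KO at 5% O2. It was called lower in each step, with a log2 fold change of -1.20 at 5% O2 over WT (SE 0.10, adjusted p = 4.48e-05). Among genes with an average log2 CPM of at least 1, the 4 largest decreases that appeared were SKIV2L, NAPRT, CSNK1E and CLN8, with log2 fold changes of -6.21, -5.87, -3.57 and -2.32. SKIV2L, NAPRT and CLN8 have 80.5%, 80.02% and 99.2% of their transcript words on alternate loci, and CSNK1E shares its exons with a readthrough transcript, so the counts of all 4 are uncertain. In SKIV2L the WT libraries themselves differed, at 7.52 and 1.14 CPM. RRN3 and NDUFA3, among the largest increases that appeared, are uncertain in the same way, with 87.1% and 90.7%. Of the 872 tested genes with at least 10% of their words on alternate loci, 16 were higher and 17 lower, near the share among the other 15044 genes, with 268 higher and 219 lower.

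Of 23 measured pluripotency markers 3 were higher and none was lower, against 1.78% of all tested genes higher. The libraries of the groups did not overlap for 10 markers above WT and 7 below it, against 26.9% above and 26.0% below over all tested genes. The 23 markers summed to 9845 and 9750 CPM in WT and to 9649 and 9538 CPM in KO at 5% O2, and their median log2 fold change was 0.00. NODAL, a ligand of the TGF-beta family, and its antagonist LEFTY1 were higher and appeared at 5% O2. NODAL was at 10.7 and 13.1 CPM in WT and at 27.6 and 21.6 CPM in KO at 5% O2 (log2 fold change 1.05, adjusted p = 0.00773), and LEFTY1 rose from 4.53 and 3.45 CPM to 12.9 and 11.2 CPM (log2 fold change 1.597, adjusted p = 0.00281). ESRG, a transcript of embryonic stem cells, had a log2 fold change of 0.55, with 27.5% of its words on alternate loci. In bulk RNA, more cells that express a gene and more RNA per cell cannot be told apart.

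Markers of other cell types were read in the same libraries. Of 4 measured endoderm markers and 3 measured amnion and trophoblast markers none was called by edgeR or DESeq2 (1 and 2 at an unadjusted p under 0.05). Of 7 mesoderm markers, edgeR called KDR alone, as lower, against 1.48% of all tested genes lower. DESeq2 called 1 of the 7 higher and 1 lower. The mesoderm markers summed to 125 and 128 CPM in WT, nearly all of it KDR, and to 60.05 and 65.9 CPM in KO at 5% O2. The list's median log2 fold change was 0.50, with 4 of 7 above 0. EOMES, a factor of early mesendoderm, was at 0.779 and 0.207 CPM in WT and at 1.42 and 2.77 CPM in KO at 5% O2 (log2 fold change 2.10, adjusted p = 0.0889). The 10 neuroectoderm markers measured summed to 1121 and 1119 CPM in WT and to 1219 and 1314 CPM in KO at 5% O2. Of these SIX6 alone was called, against 1.78% of all tested genes higher. The defining fibroblast genes DCN and LUM had 0 counts in all 6 libraries without NAC. The 9 fibroblast markers measured summed to 934 and 947 CPM in WT and to 924 and 993 CPM in KO at 5% O2, and none was called by edgeR or DESeq2, with 2 at an unadjusted p under 0.05. DCN had 1809 counts in the first NAC library and 0 in the second, so the NAC libraries differ from each other in a marker that was at 0 in the libraries compared.

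A few genes that remained were called between the KO groups in the direction of WT. Of the 125 genes that remained in either direction, 7 were called in KO at 5% O2 over KO at 20% O2 in that direction, a share near that of all tested genes in this comparison (3.68% higher and 4.13% lower). CCN2, a secreted matrix protein, was at 39.9 and 41.6 CPM in WT, at 13.5 and 15.4 CPM in KO at 20% O2 and at 20.5 and 22.8 CPM in KO at 5% O2. CHCHD2, a mitochondrial protein that also acts in the nucleus on an oxygen-responsive promoter of a cytochrome oxidase gene, was at 290 and 347 CPM in WT, at 132 and 152 CPM in KO at 20% O2 and at 203 and 180 CPM in KO at 5% O2, with 38.9% of its words on alternate loci. The other 5 were ACSL4, NXT2, PSMD10, TRMT12 and NFKBIZ, and these genes were named after their values were seen. ACSL4, NXT2 and PSMD10 lie in the chromosome X run.

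The genes that moved further from WT at 5% O2 were also few. ODC1, ornithine decarboxylase, the first enzyme of polyamine synthesis, was at 176 and 184 CPM in WT, at 281 and 294 CPM in KO at 20% O2 and at 579 and 518 CPM in KO at 5% O2 (log2 fold change 1.61, SE 0.09, adjusted p = 2.13e-06). TFPI, an inhibitor of the coagulation pathway, went from 1.92 and 1.48 CPM in WT to 4.36 and 5.39 CPM in KO at 20% O2 and to 9.69 and 10.9 CPM in KO at 5% O2 (log2 fold change 2.60, adjusted p = 0.000162). PKIB and TMEM88 had log2 fold changes of 1.31 and 1.47. These 4 genes are those called higher in both steps. The order of the groups, with WT lowest and KO at 5% O2 highest, follows from that choice.

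By position, the genes that were lower were concentrated on chromosome X. Of 574 tested genes there 27 were lower, which is 4.70% against 1.48% over all chromosomes, and 20 of the 27 remained while none appeared. The excess lay in a single stretch. From NRK to AMMECR1 (hg38, chromosome X, 105822539 to 110440318) 17 of 24 tested genes were lower, 1 was higher and 6 were not called. On the rest of the chromosome 10 of 550 were lower (1.82%). The median log2 fold change of the 24 genes was -0.92 at 5% O2 over WT and -0.96 in KO at 20% O2 over WT, and 15 of the 17 lower genes remained. The stretch was picked out after its values were seen, so these counts are a description and carry no test. Among 902 windows of 2.5 Mb with at least 5 tested genes, the window on chromosome X from 107500001 to 110000000 held the most lower genes, 11 of 13, the next window towards NRK held 4 of 9, and no other window held more than 3.

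Genes of this stretch have varied roles. PRPS1, which makes the ribose precursor of nucleotides, was at 352 and 347 CPM in WT, at 138 and 137 CPM in KO at 20% O2 and at 150 and 151 CPM in KO at 5% O2 (log2 fold change -1.21, SE 0.10, adjusted p = 7.05e-05). TSC22D3, a glucocorticoid-induced leucine-zipper gene, was at 39.3 and 38.0 CPM in WT and at 13.3 and 13.99 CPM in KO at 5% O2 (log2 fold change -1.498, adjusted p = 0.000398). ACSL4, which activates arachidonic acid, was at 222 and 209 CPM in WT, at 88.8 and 84.4 CPM in KO at 20% O2 and at 122 and 112 CPM in KO at 5% O2. PSMD10, the proteasome assembly factor gankyrin and the only called gene of the proteasome list, was at 118 and 130 CPM in WT and at 71.8 and 59.3 CPM in KO at 5% O2. TEX13B had the largest decrease, from 6.32 and 7.86 CPM to 0.392 and 0.436 CPM (log2 fold change -4.09, SE 0.44, adjusted p = 0.000316). VSIG1, in the middle of the stretch, went the other way, with 0 CPM in both WT libraries and 0.392 and 0.748 CPM in KO at 5% O2.

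**Figure D5:**
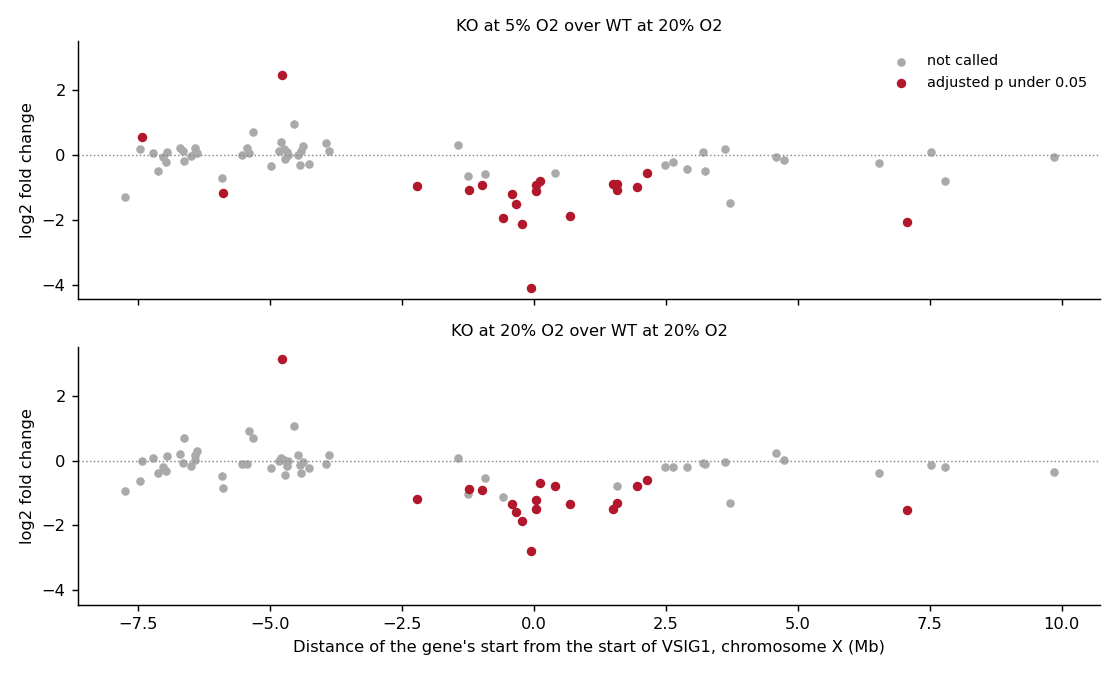
The log2 fold change of each tested gene with an average log2 CPM of at least 0, against the distance of its start from the start of VSIG1 on chromosome X, within 10 Mb, for KO at 5% O2 (top) and KO at 20% O2 (bottom) over WT at 20% O2. Red marks an adjusted p under 0.05, and in both panels a run of genes within about 2.5 Mb of VSIG1 lies below 0 while most genes outside it lie near 0.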

How the data were processed

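RNA was read from WA26 human embryonic stem cells in 8 libraries of 4 groups (WT and KO at 20% O2, KO at 5% O2, KO with NAC). The authors made TruSeq libraries, trimmed the reads and mapped them on hg38 (HISAT2). Their deposited table holds counts from featureCounts run with its defaults, without normalization. FastQC 0.11.9 is named in the submitters' processing notes. The annotation used for counting is not given in the sources used here. These defaults take no account of strand and drop multi-mapped reads, which can bias overlapping, antisense and repeated genes and those with a copy on an alternate-locus scaffold. The 4 labelled WT libraries with NAC or at 5% O2 and the mitochondrially encoded genes were not analysed here.

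Low genes were removed by filterByExpr at a minimum count of 10. After TMM scaling, the quasi-likelihood model of edgeR 4.0.16 (R 4.3.3) was used in 1 fit of all 8 libraries with a term per group (4 residual degrees of freedom). The Benjamini-Hochberg adjustment covers 15916 genes. CPM are counts scaled to the TMM-adjusted library size, not per length, so levels were not compared between genes. Replicates of a group differed by more than sampling noise (chi-square per degree of freedom 9.53 to 30.7), and the biological coefficient of variation was 13.7%. Of 28278 genes, 26098 were matched by symbol to GENCODE for position, length and GC content. A gene was marked uncertain where at least 10% of the 31-base words of its transcript stand on 1 of 261 alternate-locus scaffolds.

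The gene lists and named genes follow rules that were chosen with earlier results of these data known. The lists overlap, so a gene can count in several of them. SLC2A1, PFKFB3 and PFKFB4 are in the HIF target and glycolysis lists, and EGLN1 is in the HIF target and oxygen sensor lists. Named genes are UBQLN1, the 10 largest changes each way among called genes with an average log2 CPM of at least 1 and groups that do not overlap, the 5 largest each way among genes that remained and that appeared, up to 6 called members of each list or the 2 with the lowest p, and the oxygen sensors. Genes outside this rule, among them list members that were not called, the genes that moved back or further at 5% O2, those of the chromosome X stretch and those of the closing section, were named after their values were seen. On simulated counts for this comparison, 153 of 200 changed genes were recovered (59 of 90 at log2 1 and 94 of 110 at log2 2). Beside these 153 correct calls stood 16 calls of unchanged genes, among 15676 tested. The simulated counts had the same spread in every group. They therefore do not carry the disagreement between the NAC libraries and cannot show the error rate of the real calls. Alternatives were DESeq2 1.42.0, RLE and upper quartile scaling, other filters, fits of fewer libraries, a replicate block, a stricter call, removal of a trend on length and GC (mgcv 1.9.3) and, added after seeing the data, removal of genes on alternate loci. A single result is not reported here.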

Additional observations from a re-analysis of the deposited data

How the results depend on the processing

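The call of UBQLN1 held under all 16 alternatives, and of 66 named genes called, 33 kept their call under every alternative that tested them, 30 lost it only when a library was left out, and CSNK1E, SKIV2L and STC2 also lost it otherwise. Counts of calls moved more. By DESeq2, 523 genes were higher and 452 lower (remaining 120 and 113, appearing 244 and 158). With no filter, 680 were higher and 670 lower (remaining 191 and 188, appearing 297 and 259). In a fit of the 4 libraries compared, 656 were higher and 632 lower, and without the NAC libraries 774 and 796 (remaining 209 and 206, appearing 364 and 350). With a log2 fold change over 1 required, 100 were higher and 81 lower (remaining 29 and 36, appearing 43 and 8). Where every library had to hold 10 counts, 204 genes were lower by the study's criteria. With the trend on length and GC removed, 15 genes appeared lower in place of 63. Leaving out a library, where the lone library of a group is assumed to vary like the others, gave 62 to 183 higher, 37 to 121 lower, 17 to 26 remaining higher, 31 to 36 remaining lower, 28 to 57 appearing higher and 0 to 12 appearing lower. Without the first library of KO at 5% O2 no gene appeared lower. Other than by DESeq2 and by the study's criteria, these counts were called at an adjusted p by edgeR, and the causes of the shifts were not tested.

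Over all tested genes the median log2 fold change was 0.00. Its rank correlation (Spearman) was -0.22 with GC content and -0.06 with length, across genes, which are no independent replicates. For KO at 5% O2 over KO at 20% O2 the correlations were stronger, at -0.33 with GC content and -0.24 with length. For KO at 20% O2 over WT they were 0.14 and 0.22. The part of these trends in the ribosomal protein and respiratory chain calls between the KO groups was not tested. The median of the HIF targets was 1.20 with the trend removed and 1.23 to 1.29 when a library was left out. In the same fits it was 0.69 to 0.77 for glycolysis, 0.018 to 0.12 for the respiratory chain and 0.567 to 0.67 for the clustered protocadherins.

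The replicate numbers were checked for pairing. Replicate differences correlated at -0.02 to 0.08 between groups, so no pairing was seen across genes as a whole. This check cannot exclude a shared clone or culture that affects few genes. With a replicate block 563 genes were called in place of 520, of which 495 were called in both. Without genes on alternate loci, chosen after seeing the data, 682 genes were called, with 487 in both.

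Signs of oxygen sensors near 0 turned, with no call. Removing the trend gave 0.12 for HIF1AN and -0.0034 for HIF1A. EPAS1 was at -0.0106 by upper quartile scaling, -0.0035 where every library had to hold 10 counts and -0.0064 without NAC. In the same order ARNT was at -0.0144, -0.0061 and -0.0083, and at -0.0026 by DESeq2, -0.0026 by RLE and -0.0011 in 4 libraries. Leaving out a library gave -0.0497 to 0.0316 for HIF1AN, -0.10 to 0.19 for VHL, -0.0226 to 0.17 for HIF1A, -0.35 to 0.29 for EPAS1, -0.0537 to 0.0493 for ARNT, -0.0418 to 0.0976 for ARNT2 and -0.11 to 0.0733 for CUL2.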

Other observations

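Genes in no list also appeared at 5% O2, and the following were picked after their values were seen. BHLHE41, a circadian and hypoxia-induced repressor related to BHLHE40, was at 0.360 and 0.544 CPM in WT and at 4.44 and 4.08 CPM in KO at 5% O2 (log2 fold change 3.22, SE 0.44, adjusted p = 0.00228). STC1, a secreted calcium-regulating hormone, rose from 12.5 and 11.04 CPM to 38.6 and 36.8 CPM (log2 fold change 1.68, adjusted p = 0.00297). APLN, which encodes the vascular peptide apelin, rose from 1.47 and 2.23 CPM to 6.52 and 6.67 CPM (log2 fold change 1.83, adjusted p = 0.00411). GBE1, the glycogen branching enzyme, and PLIN2, a coat protein of lipid droplets, rose by log2 fold changes of 1.25 and 0.85. In each of these genes both KO libraries at 20% O2 lay under both KO libraries at 5% O2. PLIN2 was at 37.4 and 32.7 CPM in WT, at 45.6 and 47.7 CPM in KO at 20% O2 and at 61.3 and 65.4 CPM in KO at 5% O2.

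The decreases that appeared with counts not shared with alternate loci were modest in abundant genes. SLC6A6, the taurine transporter, was at 280 and 287 CPM in WT and at 186 and 190 CPM in KO at 5% O2 (log2 fold change -0.59, adjusted p = 0.00174). SOX4, a transcription factor of progenitor cells, was at 340 and 360 CPM in WT and at 242 and 271 CPM in KO at 5% O2 (log2 fold change -0.45, adjusted p = 0.019). KLF15, a metabolic transcription factor, had a log2 fold change of -1.17.

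In the chromosome X stretch the NAC-treated KO libraries, which do not enter the comparison, stood at 249 and 197 CPM for PRPS1 and at 18.7 and 13.0 CPM for TSC22D3, under the WT libraries in both genes. Outside the stretch, NLGN4X and MID1IP1 on chromosome X also remained lower, with log2 fold changes of -1.03 and -0.85.

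On chromosome 5 the window from 140000001 to 142500000, which holds the protocadherin clusters, held 5 higher genes of 83 tested. By share other windows held more, such as 4 of 20 on chromosome 8 from 22500001 to 25000000.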
